A study of Gossypium hirsutum with 45 samples.

Results

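The gibberellin and cytokinin genes of upland cotton were taken as every gene whose deposited description contains either hormone's name. They numbered 119 of the 75376 genes in the expression table, 71 for gibberellin and 48 for cytokinin, and both hormones are described apart. Seedlings of the cotton (Gossypium hirsutum) variety Hengmian HD008 were grown in sterilized sand at 25 °C with 16 h of light and 8 h of dark, and were given 10% PEG 6000, which holds water back from roots, at the 3-leaf stage. Leaf, root and stem were each sampled at 0 min, labelled CK, and at 10, 30, 60 and 180 min of PEG, with 3 libraries in each of the 15 groups. The labels do not say whether the 3 libraries came from separate plants, so p-values measure the spread between these libraries. No untreated plants were sampled after 0 min, so an effect of PEG and one of time of day or handling cannot be told apart.

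Gibberellins are diterpenoid hormones that promote elongation growth. GA20-oxidases and GA3-oxidases make the active forms, GA2-oxidases inactivate them, and the soluble receptor GID1 binds them and then marks the growth-repressing DELLA proteins for destruction. Cytokinins are adenine derivatives that promote shoot cell division and delay leaf ageing: isopentenyltransferases start their synthesis, the P450 hydroxylase makes trans-zeatin types, LOG enzymes release the active base, cytokinin oxidase/dehydrogenases (CKX) destroy it, and histidine kinase receptors pass the signal through phosphotransfer proteins to response regulators.

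By words of the description, the gibberellin genes comprised 3 GA20- or GA3-oxidases, 10 GA2-oxidases, 4 GID1 receptors, 50 genes with the domain named gibberellin regulated protein (the small cysteine-rich GASA peptides), and 4 genes whose alternative names mention the hormone. The cytokinin genes comprised 3 isopentenyltransferases, 3 cytokinin hydroxylases, 5 LOG genes, 28 CKX genes, 1 cytokinin glucosyltransferase, 2 histidine kinases, 2 CRF5 transcription factors, and 4 genes with the hormone in an alternative name. A Swiss-Prot protein name was given for 29 and 27 of them, and the rest carried a domain name alone. Genes are named by chromosome and number (A or D for the 2 subgenomes) without the shared prefix Gohir, with coordinates as deposited, on a genome build not given in the sources used here. Near-identical A and D copies, and the strand used in counting, were not annotated, so levels of such copies are uncertain.

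Reads within genes ranged from 16373617 to 21774520 a library. In the deposited FPKM (fragments scaled for transcript length and library), 1 read in a 1 kb transcript was worth 0.0440 to 0.0899. These values are not set by the read totals alone: relative to scaling by a library's own reads in genes they were 1.36 to 1.605 times as high in root at 180 min, 0.958 to 1.26 times in root at the earlier times, and 0.774 to 1.07 times in leaf and stem. Summed Rubisco small chain levels (8 genes) were 10420 to 23425 FPKM in leaf, 752 to 5064 in stem and 12.9 to 144 in root. Within root they were 12.9 to 18.0 at 0 min, 33.3 to 38.0 at 60 min and 86.0 to 144 at 180 min, and the sum of 59 light-harvesting genes went from 13.1 to 23.1 at 0 min to 44.7 to 68.2 at 180 min. The 3 Casparian strip genes, which mark root endodermis, summed to at most 0.398 FPKM in leaf and 0.210 in stem and up to 30.9 in root. In root they summed to 23.2 to 30.9 at 0 min, 2.90 to 16.4 at 30 min and 9.60 to 28.1 at 60 min. At 180 min they summed to 0 to 11.7 in root, where replicate 1 had all 3 at 0. Nitrate and ammonium transporter genes summed to 1801 to 2888 FPKM in root at 0 min and 1081 to 1311 at 180 min. Stem Rubisco sums were 1597 to 2464 at 0 min, 788 to 935 at 60 min and 752 to 1345 at 180 min. Leaf Rubisco sums were 16970 to 19127 at 0 min and 10420 to 11833 at 180 min. Light-harvesting sums at 180 min overlapped 0 min in leaf and in stem. The stem transporter sums were 100 to 226 at 0 min, 449 to 553 at 60 min and 200 to 351 at 180 min. The part of these marker shifts in the results of any tissue was not tested. Replicate 1 of stem at 0 min correlated with the other stem libraries of its group at 0.851 and 0.863, against 0.955 between those. The lowest such correlations were 0.818 in stem at 180 min, 0.882 in leaf at 0 min and 0.898 in root at 180 min.

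Changes are given as log2(FPKM + 1) differences from 0 min in the same tissue ± SE, tested with limma and adjusted over all genes tested in that tissue. On this scale the change of genes at low levels is understated. A gene was tested in a tissue if it reached 1 FPKM in at least 3 of its 15 libraries, and a call is an adjusted p under 0.05. The 4 times share the 0 min libraries. Counts from refits without a library or with a replicate block are given without the share of all genes in that refit. They show dependence on libraries and are not set against a background. In whole organs, fewer cells of a type and less RNA per cell cannot be told apart.

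**Figure D1:**
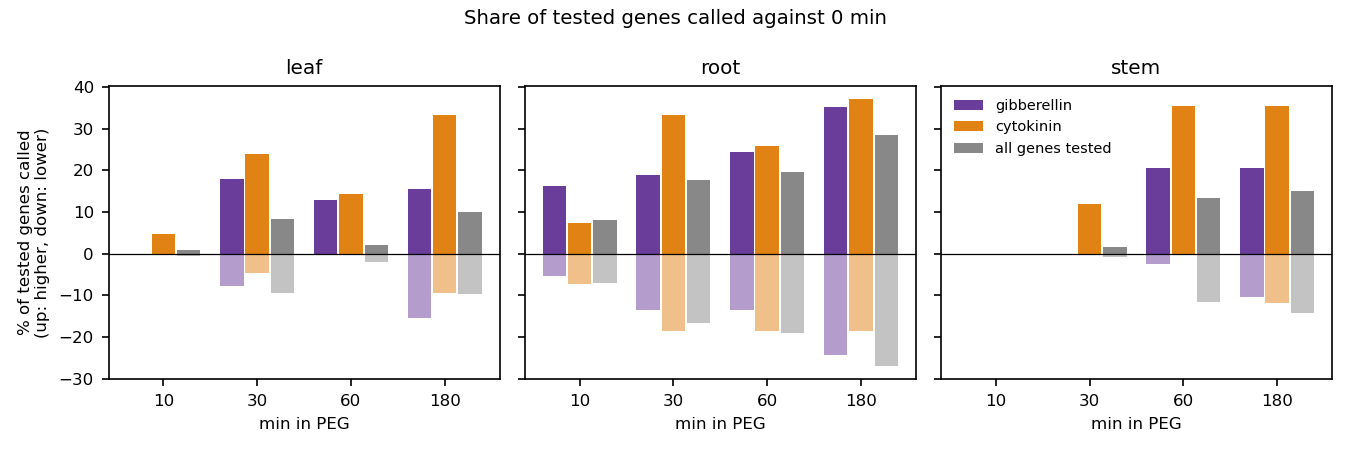
Percentage of tested genes called higher (upward) or lower (downward) than 0 min, by tissue and minutes of PEG, for gibberellin genes, cytokinin genes and all genes. Higher calls reached 35.1% of gibberellin genes and 37% of cytokinin genes in root at 180 min, against 28.5% of all genes. With each library scaled to its own total, 9 of 36 gibberellin and 5 of 26 cytokinin genes were higher there and 11 and 7 lower, against 15.9% and 44.8% of all genes.

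In root the GA2-oxidase A13G152000, which inactivates gibberellin, rose from 6.21 ± 2.77 FPKM (SD, n = 3) at 0 min to 364 ± 213 at 180 min, and the GA3-oxidase D11G043000, which makes the active form, from 5.70 ± 2.82 to 43.5 ± 10.2 at 60 min. Of the 4 GID1 receptor genes 3 rose and 1 fell in root at 180 min, when 28.5% of all genes were higher and 26.9% lower. The rise of A11G119000, 1 of the 3, was lost with libraries scaled to their own total or under quantile normalization. In leaf the most abundant GASA gene, A07G122100, fell from 614 ± 170.5 to 58.3 ± 26.1 FPKM.

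Of the gibberellin genes, 46 were tested in at least 1 tissue and 29 in all 3. Another 3 were listed at 0 in every library, 18 stayed above 0 but under 1 FPKM, and 4 reached 1 FPKM in too few libraries. A combined F test over the 4 times called 21 of 39 tested in leaf (30% of all genes), 23 of 37 in root (66.8%) and 15 of 39 in stem (34.4%), so the root share was near the background. In leaf no gibberellin gene was called by limma at 10 min (0.884% of all genes higher and 0.625% lower), while 10 of 39 had an unadjusted p under 0.05, all higher. Of all genes tested in leaf, 6894 of 46265 had such an unadjusted p then, 3010 higher and 3884 lower. At 30 min 7 gibberellin genes were higher and 3 lower (8.33% and 9.5%), at 60 min 5 higher and none lower (2.04% and 1.9%, 3.94% in all), and at 180 min 6 higher and 6 lower (9.89% and 9.61%). The median change of the tested gibberellin genes in leaf was 0.59, 0.37, 0.45 and -0.40 at the 4 times, against -0.02, -0.07, -0.03 and -0.04 for all genes. Leaf calls rested on single libraries: without replicate 2 at 0 min they were 6 at 30 min and 5 at 180 min, and without replicate 1 or 2 at 180 min, 7 or 6 at that time. At 60 min they were 0 without replicate 3 at 0 min, 3 without replicate 2 at 60 min and 1 without any other library of those groups. At 10 min 2 were called without replicate 2 or 3 of that time.

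In root the gibberellin calls grew from 6 higher and 2 lower at 10 min (8.16% and 7.03% of all genes) to 7 and 5 at 30 min (17.6% and 16.6%), 9 and 5 at 60 min (19.5% and 19.1%) and 13 and 9 at 180 min (28.5% and 26.9%, 55.3% in all). The green-tissue markers were higher and the Casparian strip markers lower in root at 180 min than at 0 min, and their part in these calls was not tested. Scaling each library to its own total made the root split 9 higher and 11 lower at 180 min, where 15.9% and 44.8% of all genes were then higher and lower, and moved the median of all genes there from 0.00 to -0.44. Without library x or replicate 2 at 0 min, or replicate 1 or 2 at 10 min, 5 were called in root at 10 min. The medians in root were 0.20, 0.09, 0.34 and -0.50, against 0.00, -0.04, 0.00 and 0.00 for all genes.

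In stem no gibberellin gene was called at 10 min (0.0021% and 0%) or 30 min (1.61% and 0.759%, 2.37% in all). In limma 5 and 13 of the 39 tested had an unadjusted p under 0.05 at these times, against 4618 and 8819 of all 47698 genes tested. Of the gibberellin genes 8 were higher and 1 lower at 60 min (13.3% and 11.6%), and 8 and 4 at 180 min (15% and 14.3%). Shares of all genes in the refits that follow are not given here. Without replicate 1 of stem at 0 min, the stem calls became 2, 16 and 15 at 30, 60 and 180 min. They were 1 at 30 min without its replicate 2, 5 at 60 min without its replicate 2, and at 180 min 6 without its replicate 2, 7 without replicate 2 at 0 min and 6 without replicate 3 at 0 min. The stem medians were 0.47, 0.57, 0.28 and -0.28, against 0.01, 0.00, -0.02 and 0.00 for all genes.

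Among the synthesis genes the GA3-oxidase D11G043000 (D11, 3545574 to 3546780), named gibberellin 3-beta-dioxygenase 4, was a root gene. Its level under PEG was above that at 0 min at every time, and lower at 180 min than at 60 min. GA3-oxidases make the last step to bioactive gibberellin. Its root libraries read 5.70, 8.52 and 2.89 FPKM at 0 min, 20.9, 12.4 and 34.8 at 10 min, 25.5, 32.0 and 34.7 at 30 min, 34.1, 54.3 and 42.1 at 60 min and 14.4, 13.6 and 14.1 at 180 min. Every PEG library lay above every 0 min library, with the highest values at 60 min. The change was 1.80 ± 0.34, adjusted p = 0.00313 at 10 min, 2.33 ± 0.34, adjusted p = 0.000193 at 30 min, 2.80 ± 0.34, adjusted p = 3.58e-05 at 60 min and 1.26 ± 0.34, adjusted p = 0.00676 at 180 min. Scaling by own total ended the call at 180 min. It was listed at 0 in all 15 leaf libraries and did not exceed 0.161 FPKM in stem. The GA20-oxidases A07G144800 and A09G179200, which act one step earlier, stayed at or under 0.211 and 0.652 FPKM and were tested in no tissue.

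The inactivating GA2-oxidases were led by A13G152000 (A13, 98631509 to 98633373), named GA2-oxidase 1. In root its libraries read 8.93, 6.31 and 3.39 FPKM at 0 min, 66.0, 74.7 and 100.64 at 10 min, 146, 175 and 204 at 30 min, 170.0, 323 and 275 at 60 min and 124, 529.8 and 439 at 180 min. The 10 min libraries were already all above those at 0 min, and replicate 1 at 180 min was the lowest of its group. The change in root was 3.55 ± 0.46, adjusted p = 0.000215 at 10 min, 4.67 ± 0.46, adjusted p = 9.04e-06 at 30 min, 5.18 ± 0.46, adjusted p = 2.70e-06 at 60 min and 5.49 ± 0.46, adjusted p = 4.83e-07 at 180 min. In leaf it read 1.30, 2.32 and 0.752 FPKM at 0 min, 9.42, 8.20 and 5.12 at 10 min, 25.3, 61.8 and 23.8 at 30 min, 17.0, 6.07 and 4.48 at 60 min and 42.2, 28.7 and 49.8 at 180 min. All leaf libraries under PEG lay above those at 0 min, highest at 30 and 180 min, with a dip at 60 min. The leaf change was 3.86 ± 0.45, adjusted p = 0.00025 at 30 min and 4.08 ± 0.45, adjusted p = 4.90e-05 at 180 min. At 60 min it was 1.90 ± 0.45, adjusted p = 0.0344, a call lost without filtering or without 0 min replicate 1 or 3 or 60 min replicate 1 (adjusted p up to 0.125). At 10 min it was 1.82, with an adjusted p of 0.0658. In stem it started higher, at 17.6, 24.7 and 5.00 FPKM, and was called at 60 min alone, at 57.5, 59.9 and 81.0 FPKM (2.22 ± 0.66, adjusted p = 0.028). That stem call was lost without 0 min replicate 3 or 60 min replicate 1, 2 or 3 (adjusted p up to 0.12).

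A13G026600 (A13, 3099304 to 3101167), one of the genes named GA2-oxidase 8, was called at 180 min in every tissue and at 60 min in stem. In leaf it read 1.12, 1.30 and 2.06 FPKM at 0 min, 0.778, 1.32 and 0.184 at 10 min, 4.24, 0.929 and 1.98 at 30 min, 2.14, 0.977 and 3.14 at 60 min and 12.4, 14.0 and 15.7 at 180 min. The 180 min leaf libraries stood apart from all earlier ones (2.60 ± 0.36, adjusted p = 0.000268). In stem the libraries rose from 0.382, 0 and 0.153 FPKM at 0 min to 4.01, 3.56 and 8.52 at 60 min (2.36 ± 0.42, adjusted p = 0.00278). Stem at 180 min was 1.27, 6.43 and 1.10 FPKM, where replicate 2 was high and the other libraries were near 1. That call (1.49 ± 0.42, adjusted p = 0.0194) was lost without 0 min replicate 2 or 3 or 180 min replicate 2 (adjusted p up to 0.0624). Its root change was smaller, 0.91 ± 0.26, adjusted p = 0.00821 at 180 min, overlapped the 0 min libraries and was lost when scaled by own total.

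Another GA2-oxidase 8 gene, A08G002700, rose in root from 4.86, 4.83 and 4.71 FPKM to 7.82, 8.24 and 8.89 at 60 min (0.68 ± 0.16, adjusted p = 0.00357). Its call at 180 min in root (adjusted p = 0.0498) was lost without 0 min library x or y or replicate 2 or 180 min replicate 2 (adjusted p up to 0.244), under quantile normalization or without filtering. Its change was -0.13 when scaled by own total. In leaf at 180 min it rose by 0.98 ± 0.27, adjusted p = 0.0216, lost without 0 min replicate 1 or 2 or 180 min replicate 1 or 2 (adjusted p up to 0.0834). D05G088700, also GA2-oxidase 8, fell in root from 1.02, 2.03 and 1.46 FPKM to 0.311, 0.260 and 0.266 at 180 min (-0.95 ± 0.20, adjusted p = 0.00122). A01G035900, named GA2-oxidase 2, fell in root from 1.89, 0.981 and 3.38 FPKM to 0.558, 0.101 and 0.186 at 60 min (-1.21 ± 0.31, adjusted p = 0.00673). Its root call at 180 min (adjusted p = 0.0475) was lost without 0 min library x or y or 180 min replicate 1, 2 or 3 (adjusted p up to 0.215), under quantile normalization, without filtering and at a pseudocount of 0.1. The other 5 GA2-oxidases were tested in no tissue. Summed over all 10, GA2-oxidase levels in root were 16.8 ± 1.31 FPKM (SD, n = 3) at 0 min and 376 ± 215 at 180 min, of which A13G152000 made up 6.21 ± 2.77 and 364 ± 213.

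**Figure D2:**
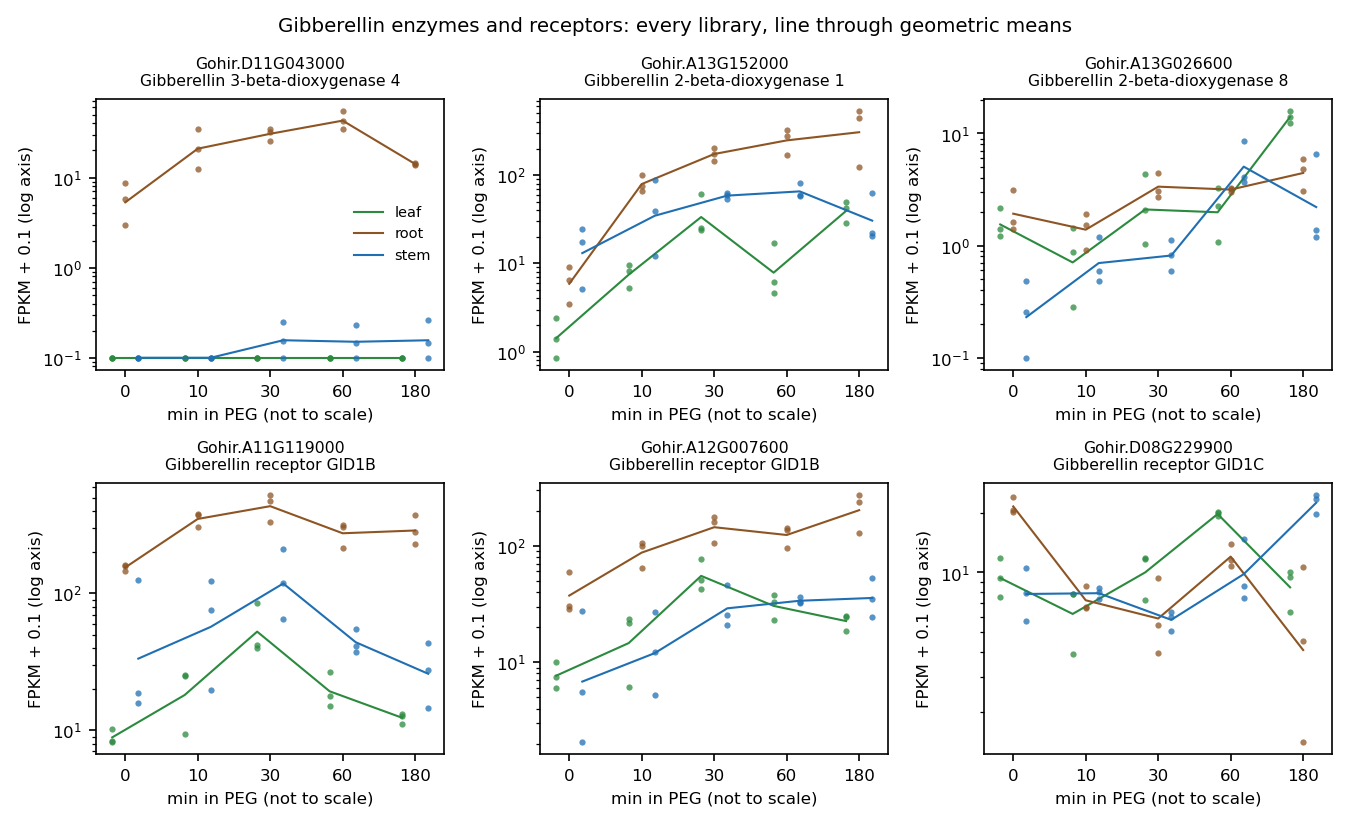
FPKM + 0.1 on a log axis against minutes of PEG in leaf, root and stem for GA3-oxidase 4 (D11G043000), GA2-oxidases (A13G152000, A13G026600) and GID1 receptors (A11G119000, A12G007600, D08G229900). Points are single libraries, 3 a group, and lines join geometric means. The root curve of A13G152000 climbs from 6.21 ± 2.77 to 364 ± 213 FPKM (mean ± SD), and D11G043000 stays at the bottom of the axis in leaf and stem.

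The 4 receptor genes were tested in all tissues, and in root at 180 min 3 of them rose and 1 fell (28.5% and 26.9% of all genes). A11G119000 (A11, 13330851 to 13333362), a GID1B gene, had the highest receptor level. In root it read 145, 162 and 158 FPKM at 0 min, 380.2, 371 and 304 at 10 min, 330.2, 475 and 522 at 30 min, 214, 317 and 307 at 60 min and 229, 371 and 282 at 180 min. Every root library under PEG was above every one at 0 min, with the highest at 30 min (1.48 ± 0.24, adjusted p = 0.000431). It was also called at 10 min (1.17 ± 0.24, adjusted p = 0.0054), at 60 min (0.83 ± 0.24, adjusted p = 0.0163) and at 180 min (0.89 ± 0.24, adjusted p = 0.00685). The 60 min call was lost without 0 min library x or 60 min replicate 2 or 3 (adjusted p up to 0.0672), and the 180 min call under own-total scaling or quantile normalization. In leaf it went from 8.14, 8.23 and 10.1 FPKM to 42.0, 85.7 and 40.1 at 30 min (2.45 ± 0.36, adjusted p = 0.000868) and stood at 11.1, 12.6 and 13.1 at 180 min, which was not called. In stem no time was called, and replicate 1 at 0 min stood apart (126, 18.6 and 15.7 FPKM).

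The second GID1B gene, A12G007600 (A12, 876671 to 879403), stayed high to 180 min. In root it read 28.7, 30.5 and 58.7 FPKM at 0 min, 99.4, 104 and 63.5 at 10 min, 105, 159.8 and 177 at 30 min, 96.2, 136 and 143 at 60 min and 128, 270.4 and 235 at 180 min. The groups did not overlap with 0 min at any time. Its change was 1.92 ± 0.35, adjusted p = 0.000818 at 30 min, 1.70 ± 0.35, adjusted p = 0.00166 at 60 min and 2.40 ± 0.35, adjusted p = 5.43e-05 at 180 min. The 10 min call (1.20 ± 0.35, adjusted p = 0.0306) was lost without 0 min library x or replicate 2 or 10 min replicate 1 or 2 (adjusted p up to 0.115). In leaf it rose from 9.89, 5.94 and 7.33 FPKM to 50.7, 76.4 and 42.7 at 30 min (2.71 ± 0.40, adjusted p = 0.000952). Leaf calls at 60 and 180 min and stem calls at 60 and 180 min were each lost without one of 4 or 5 single libraries, with adjusted p up to 0.0871, 0.0818, 0.186 and 0.147. These were, for leaf, 0 min replicate 2 or 3 or 60 min replicate 1 or 3 and 0 min replicate 2 or 3 or 180 min replicate 2 or 3, and for stem, 0 min replicate 2 or 3 or 60 min replicate 1, 2 or 3 and 0 min replicate 2 or 3 or 180 min replicate 1 or 2.

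The GID1C gene D08G229900 (D08, 65137209 to 65139632) fell in root. Its root libraries read 20.1, 20.47 and 23.8 FPKM at 0 min, 6.62, 6.56 and 8.41 at 10 min, 9.28, 5.37 and 3.84 at 30 min, 13.8, 11.5 and 10.7 at 60 min and 1.31, 4.40 and 10.6 at 180 min. All of them under PEG lay below those at 0 min, and the 180 min libraries spread from 1.31 to 10.6 FPKM. The fall was -1.71 ± 0.42, adjusted p = 0.00668 at 30 min and -2.09 ± 0.42, adjusted p = 0.00088 at 180 min. At 60 min the change of -0.79 had an adjusted p of 0.157. The 10 min call (adjusted p = 0.0326) was lost at a pseudocount of 0.1 and without any one library of either group (adjusted p up to 0.107). In stem it rose from 10.4, 7.80 and 5.59 FPKM to 24.3, 19.5 and 23.4 at 180 min (1.42 ± 0.23, adjusted p = 0.000911). The response differed between root and stem (interaction F test, adjusted p = 1.30e-05). In leaf a call at 60 min (adjusted p = 0.0495) was lost without any one library of either group (adjusted p up to 0.136), without filtering and at a pseudocount of 0.1. The other GID1C gene, D11G270801, with a deposited length of 366 bases, rose at 180 min in root (16.9, 49.3 and 34.2 FPKM from 3.25, 5.75 and 10.5, 2.19 ± 0.40, adjusted p = 0.000378) and in stem (1.18 ± 0.23, adjusted p = 0.00284).

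The GASA peptides, small secreted proteins first named for induction by gibberellin, held members that rose and members that fell in each tissue. In leaf 27 of the 50 were tested. At 30 min 4 were higher and 3 lower (8.33% and 9.5% of all genes), at 60 min 2 higher (2.04%), and at 180 min 2 higher and 6 lower (9.89% and 9.61%). A07G122100 (A07, 24645068 to 24646420) was the most abundant in leaf and fell there. It read 466, 800.1 and 575 FPKM at 0 min, 207, 414 and 684 at 10 min, 135, 146 and 238 at 30 min, 383, 566 and 578 at 60 min and 33.2, 56.3 and 85.2 at 180 min. The 180 min leaf libraries lay far below all others (-3.44 ± 0.43, adjusted p = 0.000128), while those at 60 min overlapped 0 min. The 30 min call (-1.83 ± 0.43, adjusted p = 0.0117) was lost without 0 min replicate 2 (adjusted p = 0.0534). In stem its libraries ranged from 0.277 to 569 FPKM, with replicate 1 at 0 min at 0.424, and no time was called.

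A11G218300 (A11, 65026209 to 65027085) and D11G205300 rose in leaf at 30 min. A11G218300 read 10.2, 15.3 and 6.17 FPKM at 0 min, 79.0, 29.1 and 239 at 10 min, 123, 101.46 and 202 at 30 min, 42.3, 58.6 and 228 at 60 min and 6.63, 4.07 and 5.12 at 180 min in leaf. All libraries from 10 to 60 min were above 0 min (3.65 ± 0.69, adjusted p = 0.00367 at 30 min). The 60 min call (2.94 ± 0.69, adjusted p = 0.033) was lost without filtering or without 0 min replicate 1, 2 or 3 or 60 min replicate 3 (adjusted p up to 0.127). The 10 min change of 2.93 had an adjusted p of 0.0552. In root it rose at 30 min (28.7, 19.8 and 37.3 FPKM from 5.09, 3.09 and 4.55, 2.47 ± 0.65, adjusted p = 0.00983) and in stem it fell at 180 min (12, 5.02 and 15.5 FPKM from 62.5, 144 and 69.7, -3.0 ± 0.60, adjusted p = 0.00301). D11G205300 went in leaf from 8.33, 16.5 and 4.60 FPKM to 65.1, 75.5 and 129.8 at 30 min (3.17 ± 0.75, adjusted p = 0.0119). It then fell to 0.0550, 0.412 and 0.120 at 180 min (-3.03 ± 0.75, adjusted p = 0.0123), a call lost without 0 min replicate 2 (adjusted p = 0.0554).

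Of the other leaf genes, D09G014900, gibberellin-regulated protein 4, fell at 30 min from 206, 248 and 80.2 FPKM to 36.7, 21.8 and 58.3 (-2.12 ± 0.46, adjusted p = 0.0079). A02G106700 fell from 5.08, 14.0 and 4.58 FPKM to 1.07, 0.743 and 0.482 at 180 min (-2.19 ± 0.51, adjusted p = 0.00885). The neighbouring genes A05G186600 and A05G186666 lie side by side on A05, 1 of 7 pairs of adjacent members. A05G186600 rose in leaf from 0.376, 0.0560 and 2.41 FPKM to 12.4, 10.1 and 3.92 at 180 min (2.40 ± 0.56, adjusted p = 0.00945) and in stem from 1.76, 0.231 and 0.318 to 39.5, 80.5 and 9.78 FPKM (4.32 ± 0.72, adjusted p = 0.00103). Its stem call at 60 min (adjusted p = 0.0197) was lost without 0 min replicate 2 or 3 or 60 min replicate 1 or 2 (adjusted p up to 0.0692). Summed over all 50, GASA levels in leaf were 1055 ± 256 FPKM (SD, n = 3) at 0 min and 317 ± 27.4 at 180 min.

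In root 23 GASA genes were tested. None was called at 10 min in limma (8.16% of all genes higher and 7.03% lower), 1 rose and 2 fell at 30 min (17.6% and 16.6% of all genes), 2 rose and 2 fell at 60 min (19.5% and 19.1%), and 4 rose and 5 fell at 180 min (28.5% and 26.9%). The shares of root GASA genes called, 17.4% higher and 21.7% lower at 180 min, were under those of all genes. D04G048900 (D04, 8111139 to 8112174) fell from 30 min on, reading 18.0, 27.6 and 9.27 FPKM at 0 min, 23.9, 41.0 and 12.1 at 10 min, 4.40, 4.14 and 0.841 at 30 min, 3.35, 1.51 and 2.70 at 60 min and 0.502, 1.05 and 1.94 at 180 min. The 0 and 10 min libraries overlapped, and from 30 min on all lay below 0 min (-3.09 ± 0.50, adjusted p = 0.000145 at 180 min). A05G366100 fell alongside, from 3.02, 7.72 and 1.34 FPKM to 0, 0 and 0.332 at 60 min (-1.98 ± 0.45, adjusted p = 0.00343). A09G170300 (A09, 77173448 to 77174875) rose late, from 1.71, 1.26 and 1.38 FPKM to 3.36, 4.29 and 3.38 at 60 min (0.93 ± 0.24, adjusted p = 0.00704) and 6.40, 14.2 and 12.9 at 180 min (2.25 ± 0.24, adjusted p = 3.46e-06). A06G004200, gibberellin-regulated protein 1, rose to 67.1, 200.02 and 429.7 FPKM at 180 min from 24.9, 29.6 and 45.4 (2.44 ± 0.55, adjusted p = 0.00203), with replicate 3 the highest. D02G065800 had 3.46, 3.90 and 52.6 FPKM at 180 min against 66.9, 47.9 and 38.7 at 0 min, where replicate 3 overlapped the 0 min libraries. Its call (-2.27 ± 0.73, adjusted p = 0.0166) was lost without 0 min library x or 180 min replicate 1 or 2 (adjusted p up to 0.0849). A04G119100 was listed at 0 in every root library at 180 min, from 0.381, 1.01 and 1.46 FPKM (adjusted p = 0.00431).

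In stem 28 GASA genes were tested, with none called at 10 or 30 min in limma (0.0021% and 2.37% of all genes called), 3 higher at 60 min (13.3% of all genes), and 2 higher and 3 lower at 180 min (15% and 14.3%). Spread within groups was wide: D09G014900 read 92.3, 1226 and 776 FPKM at 0 min and 507, 32.2 and 893 at 180 min, and was not called. A02G060300 went from 5.13, 191 and 104 FPKM at 0 min to 0.322, 0.721 and 7.62 at 180 min, with groups that overlapped. Its call (-4.21 ± 1.34, adjusted p = 0.0321) was lost without 0 min replicate 2 or 3 or 180 min replicate 1 or 2 (adjusted p up to 0.123). The same held for A04G119100 (-3.97 ± 1.23, adjusted p = 0.0285) without 0 min replicate 2 or 3 or 180 min replicate 1 or 2 (adjusted p up to 0.117). D05G189500 rose at 180 min to 244, 314 and 52.6 FPKM from 59.7, 4.51 and 7.59 (3.5 ± 1.02, adjusted p = 0.022), lost without 0 min replicate 2 or 3 or 180 min replicate 1 or 2 (adjusted p up to 0.0884).

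**Figure D3:**
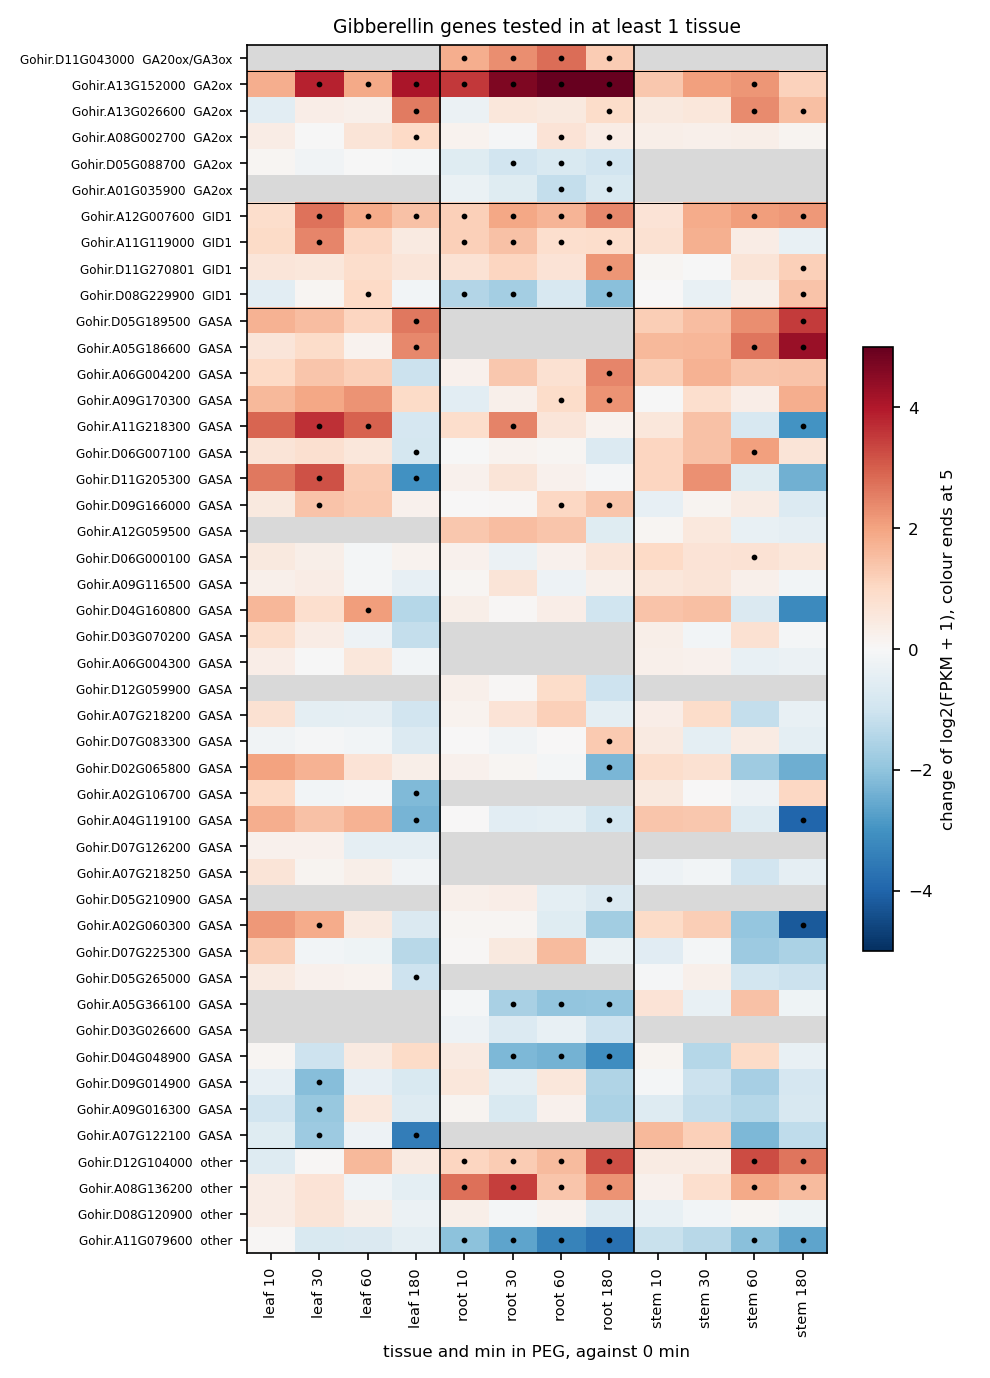
log2(FPKM + 1) change from 0 min for the 46 gibberellin genes tested in at least 1 tissue (rows, by class) at 10, 30, 60 and 180 min in each tissue (columns). Dots mark adjusted p under 0.05, grey cells were not tested, and colours end at 5. The GA2-oxidase A13G152000 reaches 5.49 in root, and the SAUR36 gene A11G079600 reaches -3.72 there.

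Of the 4 genes with gibberellin in an alternative name, 3 encode SAUR36, a small auxin-responsive protein, and they moved in different directions. A11G079600 (A11, 7801655 to 7802861) fell in root and stem. Its root libraries read 12.8, 18.8 and 17.2 FPKM at 0 min, 2.65, 3.73 and 3.02 at 10 min, 0.931, 1.34 and 3.52 at 30 min, 0.780, 0.745 and 0.528 at 60 min and 0.142, 0.447 and 0.305 at 180 min. The root groups were separate from 0 min at every time and lower at each later one. The fall was -2.05 ± 0.26, adjusted p = 0.000179 at 10 min and -3.72 ± 0.26, adjusted p = 9.72e-08 at 180 min. In stem it fell to 0.533, 0.213 and 3.22 FPKM at 180 min from 11.3, 7.47 and 17.1 (-2.63 ± 0.40, adjusted p = 0.000522), and in leaf no time was called. A08G136200 (A08, 105471856 to 105473002) rose in root from 2.72, 7.24 and 3.52 FPKM to 39.0, 33.2 and 31.3 at 10 min (2.77 ± 0.36, adjusted p = 0.000193) and 33.3, 61.6 and 83.1 at 30 min (3.45 ± 0.36, adjusted p = 1.28e-05). It stayed up at 60 and 180 min (2.25 ± 0.36, adjusted p = 0.000128 at 180 min), was under 1 FPKM in stem at 0 min, and rose there at 60 min (1.88 ± 0.38, adjusted p = 0.00506). D12G104000 (D12, 38965372 to 38965866) rose in root at 180 min to 77.6, 87.9 and 56.4 FPKM from 3.91, 7.91 and 10.1 (3.23 ± 0.34, adjusted p = 3.39e-06) and in stem at 60 min to 14.6, 37.4 and 38.5 from 5.35, 0.902 and 1.13 (3.28 ± 0.75, adjusted p = 0.00936). The ribosomal protein L9 gene D08G120900 was called at no single time in any tissue, with group means from 15.3 ± 8.34 in root at 180 min to 36.9 ± 4.24 FPKM in leaf at 30 min.

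At 0 min the levels of 22 of 46 gibberellin genes differed from leaf to root, against 47.2% of all genes: 9 were greater in leaf (23.7%) and 13 in root (23.5%). From leaf to stem 19 differed (30.7%), 7 greater in leaf (17.7%) and 12 in stem (12.9%). From root to stem 28 differed (42%), 12 greater in root (21.1%) and 16 in stem (20.9%). Of the 46 genes 5 were tested in root alone and 1 in leaf alone. Genes that passed the filter through 1 tissue lean the splits toward that tissue. Leaving out 1 library gave 17 to 20 from leaf to root, 13 to 21 from leaf to stem and 20 to 31 from root to stem. Differences are the first-named tissue minus the second. A07G122100 had 466, 800.1 and 575 FPKM in leaf and at most 0.411 in root (8.96 ± 1.45, adjusted p = 3.76e-06). GID1B A11G119000 was lower in leaf than in root (-3.99 ± 0.55, adjusted p = 1.80e-07). D02G065800 was lower in leaf, at 7.23, 4.69 and 0.773 FPKM, than in stem, at 18.0, 207 and 92.2 (-4.04 ± 0.91, adjusted p = 0.000748). D12G059900, gibberellin-regulated protein 11, was a root gene with 25.8, 8.17 and 4.39 FPKM there and at most 0.436 in stem (3.25 ± 0.71, adjusted p = 0.000355), and was called at no time. The response over time differed for 18 of 46 gibberellin genes between leaf and root (42.8% of all genes). It differed for 6 between leaf and stem (15.3%) and 13 between root and stem (36.9%). These counts can include genes tested in 1 tissue alone, whose difference restates the change there. Leaving out 1 library gave 13 to 20, 4 to 9 and 10 to 16.

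Other genes of the gibberellin pathway, found by words of the description, were counted as lists. Of 13 DELLA genes, the repressors that GID1 removes, 8 were tested in root: 3 fell at 10 min (7.03% of all genes), 2 at 30 min (16.6%), 6 fell and 1 rose at 60 min (19.1% and 19.5%), and 6 fell at 180 min (26.9%), with a median of -1.42. A07G078700 went in root from 62.6 ± 5.11 to 15.2 ± 2.76 FPKM at 180 min (-1.98 ± 0.16, adjusted p = 2.81e-07). In leaf 9 were tested, of which 2 rose at 10 min (0.884%), 3 rose at 30 min (8.33%) and 4 fell at 180 min (9.61%). D05G021500 had 9.09 ± 0.352 FPKM at 0 min in leaf, 22.1 ± 4.51 at 10 min and 3.33 ± 0.237 at 180 min. In stem 3 of 9 fell at 60 min (11.6%), and 1 rose and 4 fell at 180 min (15% and 14.3%). Among the 154 GRAS domain genes, which include DELLA genes, 119 were tested in root, and 20 rose and 63 fell at 180 min, or 16.8% and 52.9%, against 28.5% and 26.9% of all genes. All 3 tested genes for ent-kaurene or copalyl synthesis, the first committed steps to gibberellin, fell in root at 180 min (26.9% of all genes), with a median of -1.19. D06G163800 went from 3.33 ± 0.832 to 0.802 ± 0.208 FPKM (-1.25 ± 0.18, adjusted p = 6.70e-05).

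In root the CKX gene D05G040300, which breaks cytokinin down, rose from 5.01 ± 0.615 FPKM (SD, n = 3) at 0 min to 160.1 ± 44.3 at 60 min, while the CKX gene D06G083200 fell from 23.2 ± 4.35 to 3.57 ± 0.608 at 30 min. In leaf 3 of 4 tested LOG genes, which release active cytokinin, rose at 180 min (9.89% of all genes), LOG1 D05G104200 from 13.2 ± 2.24 to 90.1 ± 19.3 FPKM. The synthesis gene IPT3 fell in leaf and rose in stem at 180 min.

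Of the 48 cytokinin genes, 33 were tested in at least 1 tissue and 13 in all 3, with 9 tested in root alone. One was listed at 0 in every library, 8 stayed above 0 but under 1 FPKM, and 6 reached 1 FPKM in too few libraries. The F test called 12 of 21 tested in leaf (30% of all genes), 21 of 27 in root (66.8%) and 10 of 17 in stem (34.4%). In leaf 1 cytokinin gene rose at 10 min (0.884% of all genes higher and 0.625% lower), 5 rose and 1 fell at 30 min (8.33% and 9.5%), 3 rose at 60 min (2.04% and 1.9%), and 7 rose and 2 fell at 180 min, where 9.89% and 9.61% of all genes were higher and lower. In root 2 rose and 2 fell at 10 min (8.16% and 7.03%), 9 rose and 5 fell at 30 min (17.6% and 16.6% of all genes), 7 rose and 5 fell at 60 min (19.5% and 19.1%), and 10 rose and 5 fell at 180 min (28.5% and 26.9% of all genes). Scaling by own total changed that last split to 5 higher and 7 lower (15.9% and 44.8% of all genes), and the leaf split at 60 min to 3 higher and 1 lower (2.66% and 1.94%). In stem none was called at 10 min in limma (0.0021% and 0% of all genes). There 2 of 17 had an unadjusted p under 0.05, against 4618 of all 47698 genes tested. Of the cytokinin genes in stem 2 rose at 30 min (1.61% and 0.759%), 6 rose at 60 min (13.3% and 11.6%), and 6 rose and 2 fell at 180 min (15% and 14.3% of all genes).

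Cytokinin calls also rested on single libraries. In leaf 3 were called at 30 min without replicate 1 or 2 at 0 min or replicate 2 at 30 min, and 5 at 180 min without replicate 1 or 2 of that time. In root 9 were called at 30 min without library x or replicate 2 at 0 min. In stem 5 were called at 180 min without its replicate 2, and 3 at 60 min without replicate 2 or 3 of either group. At 30 min in stem 1 was called without replicate 1 at 0 min or replicate 2 at 30 min, and 0 without any other library of those groups. The medians of the tested cytokinin genes were -0.08, 0.17, 0.20 and 0.17 in leaf at the 4 times, -0.08, 0.48, 0.26 and 0.42 in root, and 0.08, 0.43, 0.48 and 0.62 in stem.

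Of the synthesis genes, the isopentenyltransferase A11G121500 (A11, 13646965 to 13648992), named IPT3, moved in opposite directions in leaf and stem. In leaf it read 1.95, 3.44 and 3.56 FPKM at 0 min, 4.94, 1.97 and 4.20 at 10 min, 2.61, 4.14 and 1.61 at 30 min, 0.656, 0.718 and 1.15 at 60 min and 0.648, 0.277 and 0.226 at 180 min. The 60 and 180 min leaf libraries were all below 0 min, with the call at 180 min (-1.51 ± 0.30, adjusted p = 0.00301) and an adjusted p of 0.0552 at 60 min. In stem it read 4.71, 1.28 and 0.908 FPKM at 0 min, 12.3, 5.8 and 4.92 at 10 min, 4.96, 2.82 and 17.8 at 30 min, 9.56, 25.5 and 15.3 at 60 min and 26.9, 78.8 and 8.63 at 180 min. All stem libraries at 10, 60 and 180 min were above 0 min, with replicate 2 the highest and replicate 3 the lowest at 180 min. The stem rise was 3.25 ± 0.75, adjusted p = 0.00697 at 180 min. At 60 min it was 2.51 ± 0.75, adjusted p = 0.03, lost without 0 min replicate 2 or 3 or 60 min replicate 2 or 3 (adjusted p up to 0.108). The response differed between leaf and stem (interaction, adjusted p = 0.00014). In root it fell from 0.782, 2.78 and 0.931 FPKM to 0.154, 0.0723 and 0.0666 at 60 min (-1.10 ± 0.33, adjusted p = 0.0177), lost without 60 min replicate 2 (adjusted p = 0.0501).

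The IPT1 gene D04G137900 was low, and in stem it rose from 0.293, 0.198 and 0.170 FPKM to 1.53, 1.51 and 3.25 at 30 min (1.30 ± 0.30, adjusted p = 0.0427). That call was lost without any one library of either group (adjusted p up to 0.15), and the 60 min call (adjusted p = 0.0428) without 0 min replicate 1, 2 or 3 or 60 min replicate 2 or 3 (adjusted p up to 0.158). Both were also lost under quantile normalization or without filtering. Its leaf call at 30 min (0.87 ± 0.25, adjusted p = 0.0282) was lost without any 0 min library (adjusted p up to 0.0699). In root its highest library held 2.15 FPKM, and it was not tested. The cytokinin hydroxylase D12G258300 (D12, 61442158 to 61446963) was a root gene that read 1.17, 0.848 and 2.13 FPKM at 0 min, 1.82, 1.80 and 0.743 at 10 min, 1.44, 5.37 and 3.63 at 30 min, 4.54, 2.93 and 2.0 at 60 min and 16.8, 9.07 and 3.67 at 180 min. The 180 min libraries were all above 0 min and spread widely (2.02 ± 0.45, adjusted p = 0.00178). Another hydroxylase, A09G041600, rose in root from 0.0246, 0 and 0 FPKM to 1.12, 0.618 and 1.49 at 60 min (1.02 ± 0.24, adjusted p = 0.00406). The third hydroxylase and the IPT1 gene A05G321400 stayed under 1 FPKM.

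Of the LOG genes, 4 were tested in leaf: 2 rose at 30 min (8.33% of all genes), 1 at 60 min (2.04%) and 3 at 180 min (9.89%), and none fell. Of 5 tested in root, 1 rose and 1 fell at 30 min (17.6% and 16.6% of all genes) and at 60 min (19.5% and 19.1%), and 2 rose and 1 fell at 180 min (28.5% and 26.9%). D05G104200 (D05, 8773458 to 8777320), named LOG1, read in leaf 10.6, 14.8 and 14.1 FPKM at 0 min, 9.36, 18.1 and 10.6 at 10 min, 20.2, 13.4 and 17.4 at 30 min, 52.2, 33.6 and 45.5 at 60 min and 104, 98.2 and 68.1 at 180 min. Leaf libraries at 60 and 180 min were all above 0 min, and those at 180 min above all others. The leaf rise was 1.65 ± 0.26, adjusted p = 0.00499 at 60 min and 2.68 ± 0.26, adjusted p = 1.63e-05 at 180 min. In root it rose from 1.40, 1.61 and 1.69 FPKM to 8.60, 12.4 and 8.52 at 60 min (2.06 ± 0.44, adjusted p = 0.00224). The root call at 180 min (adjusted p = 0.0155) was lost under own-total scaling and without 180 min replicate 1 or 2 (adjusted p up to 0.0773). In stem its 180 min call (adjusted p = 0.0169) was lost without 0 min replicate 3 or 180 min replicate 1 (adjusted p up to 0.0656).

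A01G111600 (A01, 22194647 to 22196869), named LOG7, rose in leaf from 0.651, 0.535 and 0.988 FPKM to 4.85, 2.52 and 4.83 at 30 min (1.52 ± 0.23, adjusted p = 0.00102). It stood at 0.934, 2.05 and 2.0 FPKM at 60 min, overlapping 0 min, and at 12.5, 12.6 and 15 at 180 min (3.06 ± 0.23, adjusted p = 2.22e-06). In stem at 180 min it read 17.9, 17.2 and 1.15 FPKM, a call (2.48 ± 0.65, adjusted p = 0.0135) lost without 180 min replicate 1 or 2 (adjusted p up to 0.0652). Its root calls at 30 and 180 min (adjusted p = 0.0242 and 0.0216) were lost without 0 min library x or replicate 2 or 30 min replicate 1 or 3 and without 0 min library x or replicate 2 or 180 min replicate 2 or 3 (adjusted p up to 0.104 and 0.11), and the second also under own-total scaling.

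A01G107400 (A01, 20456645 to 20458555), named LOG5, rose in leaf while it fell in root. In leaf it went from 2.28, 0.311 and 0.918 FPKM to 11.4, 8.41 and 6.74 at 180 min (2.26 ± 0.30, adjusted p = 0.000208). In root it read 6.21, 5.89 and 7.78 FPKM at 0 min, 3.93, 3.49 and 5.64 at 10 min, 1.28, 3.31 and 1.81 at 30 min, 0.720, 0.498 and 0.459 at 60 min and 2.72, 2.14 and 0.955 at 180 min. All root libraries under PEG lay below 0 min, lowest at 60 min. The root fall was -1.33 ± 0.27, adjusted p = 0.00173 at 30 min, -2.29 ± 0.27, adjusted p = 2.27e-05 at 60 min and -1.42 ± 0.27, adjusted p = 0.000481 at 180 min, and the response differed from leaf (interaction, adjusted p = 2.92e-06). The most abundant LOG gene, A05G187300 (A05, 18468995 to 18471643), named LOG3, read 43.5, 27.9 and 73.2 FPKM in root at 0 min and was called at no time there. In stem it fell to 3.27, 3.91 and 6.27 FPKM at 180 min from 20.9, 12.1 and 11.7 (-1.53 ± 0.37, adjusted p = 0.00847). Its leaf call at 30 min (1.25 ± 0.35, adjusted p = 0.0271) was lost without 0 min replicate 1 or 2 or 30 min replicate 1, 2 or 3 (adjusted p up to 0.107). The other LOG7 gene, A01G202300, reached 2.70 FPKM in root and was called at no time. Summed over the 5 LOG genes, leaf levels were 18.4 ± 3.35 FPKM (SD, n = 3) at 0 min and 116 ± 18.7 at 180 min.

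**Figure D4:**
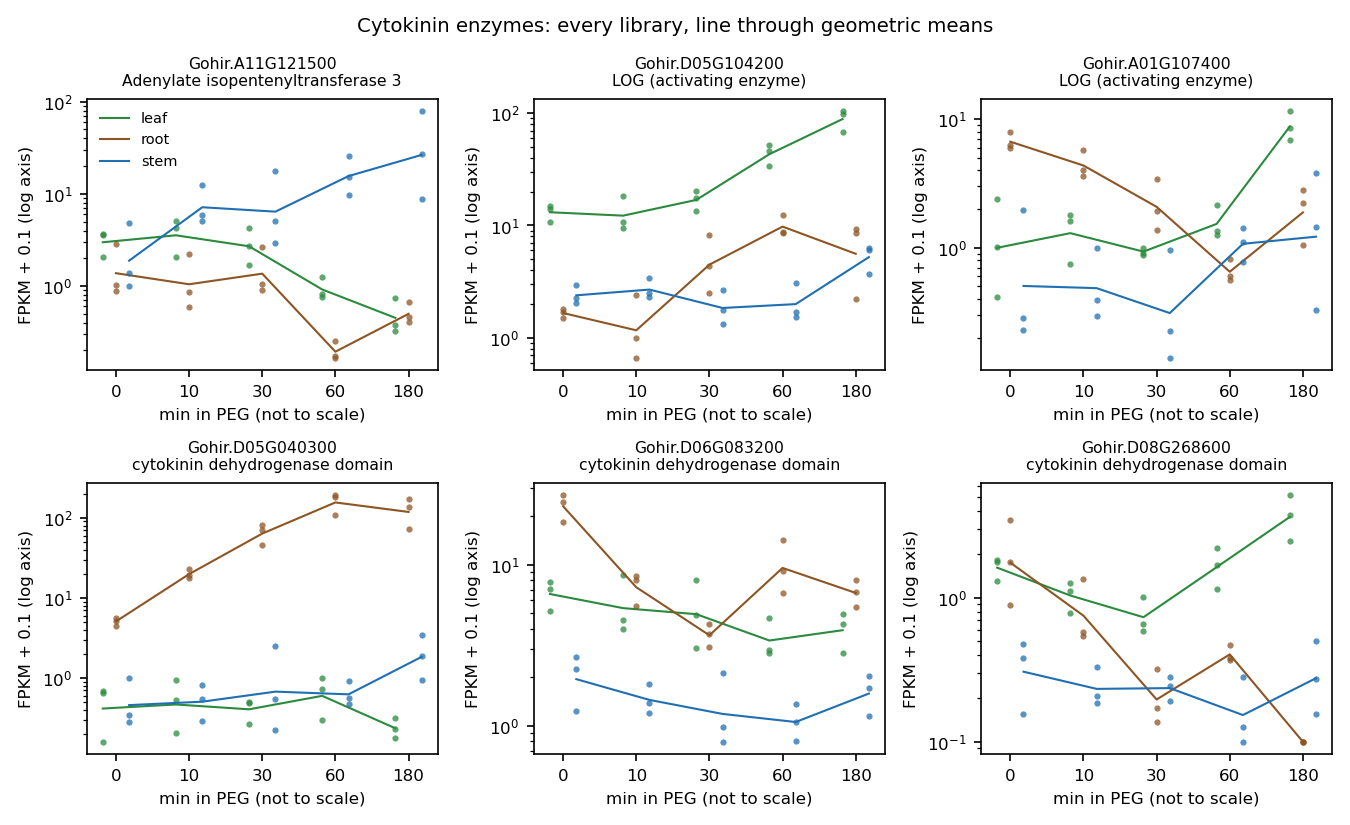
FPKM + 0.1 on a log axis against minutes of PEG in leaf, root and stem for IPT3 (A11G121500), LOG1 (D05G104200), LOG5 (A01G107400) and CKX genes (D05G040300, D06G083200, D08G268600). Points are single libraries, 3 a group, and lines join geometric means. The root curve of D05G040300 climbs from 5.01 ± 0.615 to 160.1 ± 44.3 FPKM (mean ± SD) at 60 min, while that of D06G083200 drops from 23.2 ± 4.35 to 3.57 ± 0.608 at 30 min.

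The CKX genes, which break cytokinin down, moved both ways in root. Of 28, 13 were tested there: 1 rose and 1 fell at 10 min (8.16% and 7.03% of all genes), 5 rose and 3 fell at 30 min (17.6% and 16.6%), 5 and 3 at 60 min (19.5% and 19.1%), and 7 and 3 at 180 min (28.5% and 26.9%). Of 10 tested in leaf, 3 rose and 1 fell at 180 min (9.89% and 9.61%), and of 6 tested in stem, 2 rose at 60 min (13.3%) and 1 at 180 min (15%). D05G040300 (D05, 3310800 to 3315150) led the rise, and its root libraries read 4.35, 5.57 and 5.10 FPKM at 0 min, 22.8, 17.6 and 19.1 at 10 min, 45.7, 80.2 and 69.7 at 30 min, 109, 179.5 and 191 at 60 min and 171, 135 and 71.9 at 180 min. Root groups under PEG were apart from 0 min from 10 min on. The change was 1.79 ± 0.31, adjusted p = 0.00158 at 10 min, 3.43 ± 0.31, adjusted p = 4.36e-06 at 30 min, 4.71 ± 0.31, adjusted p = 2.82e-07 at 60 min and 4.32 ± 0.31, adjusted p = 1.12e-07 at 180 min. In leaf it stayed under 1 FPKM, and in stem no time was called. A05G038800 (A05, 3888209 to 3891676) rose later in root, from 2.79, 3.83 and 2.68 FPKM to 17.1, 27.0 and 26.9 at 60 min (2.57 ± 0.30, adjusted p = 2.45e-05) and 33.4, 25.4 and 12.7 at 180 min (2.51 ± 0.30, adjusted p = 1.14e-05). Its 30 min call (adjusted p = 0.0475) was lost without 0 min library x or y or replicate 2 or 30 min replicate 2 or 3 (adjusted p up to 0.1649), under own-total scaling and without filtering.

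D13G013800 (D13, 1286689 to 1288914) rose in root and in leaf. Its root libraries read 0.491, 0.279 and 0.883 FPKM at 0 min, 1.23, 2.75 and 2.29 at 10 min, 6.16, 18.2 and 15.7 at 30 min, 5.81, 7.82 and 5.85 at 60 min and 23.4, 19.4 and 12.2 at 180 min. All PEG libraries lay above 0 min, with those at 60 min lower than most of those at 30 and 180 min. The root change was 3.11 ± 0.34, adjusted p = 1.99e-05 at 30 min and 3.61 ± 0.34, adjusted p = 1.31e-06 at 180 min. In leaf it was under 0.5 FPKM up to 60 min and rose to 8.11, 3.95 and 4.37 at 180 min (2.35 ± 0.23, adjusted p = 1.78e-05), while in stem it was not tested. D06G002600 (D06, 468890 to 473558), which overlaps the CKX gene D06G002700 in the deposited coordinates, rose in root from 0.604, 0.561 and 0.244 FPKM to 5.41, 6.74 and 5.48 at 60 min (2.23 ± 0.19, adjusted p = 2.01e-06) and in stem from 0.485, 0.306 and 0.0467 to 3.15, 3.32 and 2.88 at 60 min (1.70 ± 0.34, adjusted p = 0.00502). D06G002700, counted as CKX by its description, lies on the opposite strand. It is described by a tetrapyrrole methylase domain and the cytokinin dehydrogenase domain, without a separate FAD binding domain. Reads in the overlap cannot be assigned here to one or the other. In stem at 180 min the call of D06G002600 (1.22 ± 0.34, adjusted p = 0.0185) was lost without 0 min replicate 3 or 180 min replicate 2 (adjusted p up to 0.0814). In leaf D06G002600 stood at 13.1, 10.7 and 8.18 FPKM at 0 min and was called at no time.

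Among CKX genes that fell, D06G083200 (D06, 17425465 to 17429962) read in root 18.4, 26.9 and 24.3 FPKM at 0 min, 8.39, 7.93 and 5.45 at 10 min, 2.96, 3.59 and 4.17 at 30 min, 14.1, 6.58 and 9.05 at 60 min and 7.95, 6.64 and 5.37 at 180 min. All root libraries under PEG were below 0 min, lowest at 30 min (-2.40 ± 0.24, adjusted p = 1.15e-05). It was also called at 10 min (-1.55 ± 0.24, adjusted p = 0.000832), at 60 min (-1.19 ± 0.24, adjusted p = 0.00178) and at 180 min (-1.66 ± 0.24, adjusted p = 6.82e-05). A08G247400 fell in root from 3.96, 3.79 and 1.5 FPKM to 0, 0.0529 and 0.0434 at 180 min (-1.92 ± 0.29, adjusted p = 9.03e-05). D08G268600 (D08, 68881698 to 68885632) went in root from 1.66, 3.36 and 0.789 FPKM to 0.220, 0.0718 and 0.0383 at 30 min (-1.31 ± 0.26, adjusted p = 0.00184) and was listed at 0 in every root library at 180 min (adjusted p = 0.000379). In leaf the same gene rose from 1.21, 1.72 and 1.68 FPKM to 5.06, 3.67 and 2.39 at 180 min (0.86 ± 0.23, adjusted p = 0.0173), a call lost without 0 min replicate 1 or 180 min replicate 1 or 2 (adjusted p up to 0.0835), and the response differed between leaf and root (interaction, adjusted p = 1.72e-06).

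A06G007700 rose in stem at 60 min to 4.47, 9.10 and 7.62 FPKM from 0.895, 0.905 and 0.410 (2.18 ± 0.36, adjusted p = 0.00188). In leaf it fell at 180 min (-0.94 ± 0.25, adjusted p = 0.0168), lost without 0 min replicate 2 or 180 min replicate 1 (adjusted p up to 0.0723). Its root calls at 60 and 180 min (adjusted p = 0.0296 and 0.0477) were lost under own-total scaling and without single libraries, 0 min library y or replicate 2 or 60 min replicate 1, 2 or 3 for the first and 0 min library y or replicate 2 or 180 min replicate 3 for the second (adjusted p up to 0.113 and 0.22). The CKX6 gene A13G012600 rose in leaf from 0.357, 0.435 and 0.255 FPKM to 1.74, 2.68 and 1.87 at 180 min (1.19 ± 0.17, adjusted p = 0.000366). The CKX7 gene A06G081700 (A06, 26098971 to 26103622), with 20.1, 24.8 and 26.9 FPKM in root at 0 min, was called at no single time in any tissue. Summed over all 28 CKX genes, root levels were 72.2 ± 7.21 FPKM (SD, n = 3) at 0 min, 254 ± 45.1 at 60 min and 228 ± 74.3 at 180 min. In leaf the sums were 39.9 ± 3.27 at 0 min and 40.2 ± 6.15 at 180 min.

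A05G303100 (A05, 42945122 to 42946982), named UGT76C2, whose Arabidopsis namesake glucosylates cytokinin bases, rose in leaf from 0.757, 1.12 and 0.498 FPKM to 4.73, 4.29 and 4.94 at 60 min (1.67 ± 0.25, adjusted p = 0.00376). Its calls in leaf at 180 min (adjusted p = 0.0378) and in root at 30 min, where it was lower (adjusted p = 0.0386), were lost without 0 min replicate 1 or 3 or 180 min replicate 2 or 3 and without 0 min library x or y or 30 min replicate 2 or 3 (adjusted p up to 0.149 and 0.143). The histidine kinase 5 gene A05G063000 was a root gene, 3.11, 2.81 and 4.09 FPKM at 0 min, that was called at no time, and CKI1 (A12G125250) was listed at 0 in all 45 libraries. D07G145000 (D07, 23562066 to 23563679), a CRF5 gene of the AP2 family of cytokinin response factors, rose in root at 30 min from 0.572, 0.616 and 1.07 to 2.71, 3.81 and 5.98 FPKM (1.52 ± 0.29, adjusted p = 0.00118) and stood at 0.401, 0.985 and 1.22 at 60 min, overlapping 0 min. In stem it rose to 2.88, 4.15 and 2.16 FPKM at 180 min from 0.262, 0.359 and 0.443 (1.56 ± 0.32, adjusted p = 0.00339).

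Of the 4 genes with cytokinin in an alternative name, 2 are named EIN2, a membrane protein of ethylene signalling. Their deposited lengths differ, 5080 bases for A09G149000 and 1499 for D09G094300, so the latter may not be a full copy. D09G094300 (D09, 37779970 to 37782923) was the one cytokinin gene called in leaf at 10 min, where 0.884% of all genes were higher. Its leaf libraries read 2.11, 2.23 and 1.96 FPKM at 0 min, 4.92, 5.14 and 4.61 at 10 min, 6.96, 9.81 and 9.72 at 30 min, 3.70, 4.48 and 5.10 at 60 min and 2.75, 2.16 and 2.09 at 180 min. Groups at 10, 30 and 60 min lay above 0 min, highest at 30 min, and the 180 min group overlapped it. The leaf change was 0.93 ± 0.15, adjusted p = 0.0125 at 10 min and 1.65 ± 0.15, adjusted p = 8.49e-05 at 30 min. At 60 min its call (0.80 ± 0.15, adjusted p = 0.0125) was lost without 0 min replicate 3 or 60 min replicate 3 (adjusted p up to 0.0625). In root it read 6.21, 5.71 and 6.07 FPKM at 10 min against 2.96, 3.24 and 2.14 at 0 min (0.90 ± 0.16, adjusted p = 0.00188) and overlapped 0 min at 60 and 180 min. In stem its call at 30 min (adjusted p = 0.04999) was lost under every other scaling, pseudocount and filter tried and without 0 min replicate 2 or 3 or 30 min replicate 1 or 3 (adjusted p up to 0.194). Stem at 180 min was lower (-0.71 ± 0.20, adjusted p = 0.02), lost without 0 min replicate 1 or 180 min replicate 2 (adjusted p up to 0.0668).

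The other EIN2 gene, A09G149000, fell in root at 180 min (3.30, 2.79 and 2.57 FPKM from 5.08, 4.69 and 7.60, -0.79 ± 0.18, adjusted p = 0.00248) and rose in stem at 60 min (8.09, 10.5 and 8.68 FPKM from 5.39, 4.20 and 5.02, 0.78 ± 0.16, adjusted p = 0.00545). D06G201400, a TFIID 12b subunit of the general transcription machinery, fell in leaf at 30 min to 3.97, 4.07 and 4.16 FPKM from 7.31, 6.76 and 7.02 (-0.66 ± 0.12, adjusted p = 0.00254). The auxin synthesis gene TAA1 (A03G136800) was tested in stem, where its libraries ran from 0 to 8.16 FPKM, and was called at no time.

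**Figure D5:**
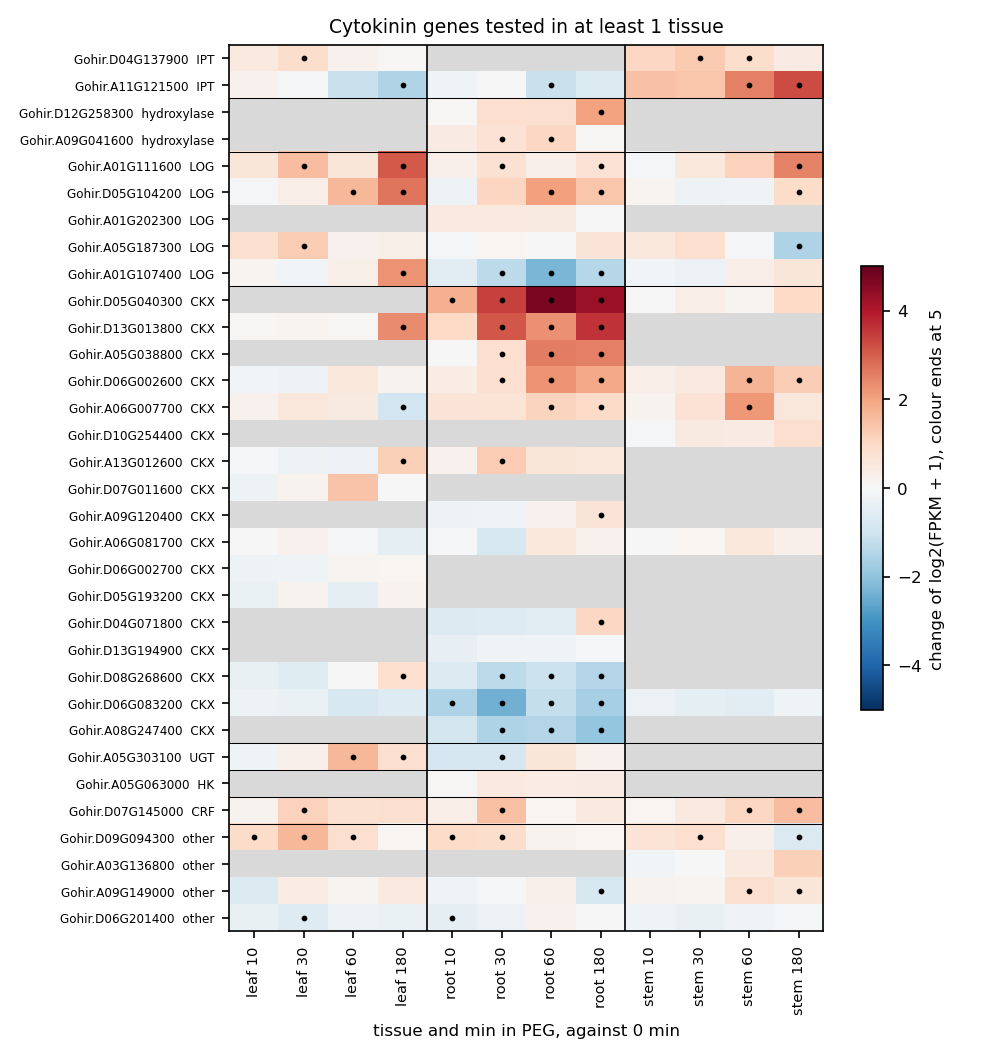
log2(FPKM + 1) change from 0 min for the 33 cytokinin genes tested in at least 1 tissue (rows, by class) at 10, 30, 60 and 180 min in each tissue (columns). Dots mark adjusted p under 0.05, grey cells were not tested, and colours end at 5. CKX rows carry both signs in root, from -2.40 in D06G083200 at 30 min to 4.71 in D05G040300 at 60 min.

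At 0 min the levels of 19 of 33 cytokinin genes differed from leaf to root (47.2% of all genes), 5 greater in leaf (23.7%) and 14 in root (23.5%). From leaf to stem 11 differed (30.7%), 9 greater in leaf (17.7%) and 2 in stem (12.9%). From root to stem 14 differed (42%), 13 greater in root (21.1%) and 1 in stem (20.9%). Of these genes 9 were tested in root alone, 3 in leaf alone and 2 in stem alone. Genes that passed the filter through 1 tissue lean the splits toward that tissue, so the root excess is partly set by the filter. Leaving out 1 library gave 18 to 19 from leaf to root, 10 to 12 from leaf to stem and 13 to 15 from root to stem. CKX7 A06G081700 had 20.1, 24.8 and 26.9 FPKM in root and 0.820, 0.379 and 0.331 in stem (4.05 ± 0.29, adjusted p = 1.15e-13). LOG3 A05G187300 was highest in root, then stem, then leaf, with leaf below root (-3.51 ± 0.37, adjusted p = 6.47e-10) and below stem (-1.94 ± 0.37, adjusted p = 9.23e-05). LOG1 D05G104200 was higher in leaf than in root (2.45 ± 0.35, adjusted p = 2.97e-07) and in stem (2.09 ± 0.35, adjusted p = 1.25e-05). The EIN2 gene D09G094300 was the one member higher in stem than in root (-0.92 ± 0.17, adjusted p = 3.00e-05). The response over time differed for 22 of 33 cytokinin genes between leaf and root (42.8% of all genes). It differed for 10 between leaf and stem (15.3%) and 19 between root and stem (36.9%). These counts can include genes tested in 1 tissue alone, whose difference restates the change there. Leaving out 1 library gave 20 to 23, 8 to 14 and 17 to 21.

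Other cytokinin pathway genes, found by words of the description, were again counted as lists. Of 15 further isopentenyltransferase genes, 6 were tested in stem, where 5 rose at 60 min (13.3% of all genes) and 5 at 180 min (15%), with a median of 1.27 at the latter. D11G126700 went from 0.472 ± 0.606 to 17.7 ± 13.1 FPKM in stem (3.41 ± 0.55, adjusted p = 0.00077). Of 32 genes with the lysine decarboxylase domain that LOG enzymes carry, 8 of 16 tested rose and 1 fell in leaf at 180 min (9.89% and 9.61% of all genes), while in root 2 of 19 rose and 10 fell (28.5% and 26.9%). D05G183600 rose in leaf from 5.89 ± 2.05 to 177 ± 53.5 FPKM (4.69 ± 0.36, adjusted p = 2.67e-06), and D06G085600 fell in root from 20.2 ± 0.592 to 2.51 ± 0.581 (-2.61 ± 0.16, adjusted p = 2.72e-08). Among 17 genes with the CHASE domain, the cytokinin-binding part of the receptors, 2 of 15 tested rose and 9 fell in root at 180 min (28.5% and 26.9% of all genes), and 5 of 16 rose and 1 fell in stem (15% and 14.3%). A03G112400 rose in root at 30 min, from 2.15 ± 0.0788 to 27.5 ± 5.88 FPKM (3.16 ± 0.25, adjusted p = 1.99e-06).

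Of 28 phosphotransfer genes, 4 of 12 tested rose and 3 fell in root at 180 min (28.5% and 26.9% of all genes), and 4 of 14 rose in stem (15%). D09G233700 went in root from 2.15 ± 0.127 to 22.6 ± 12.5 FPKM (2.74 ± 0.36, adjusted p = 2.73e-05). Of 120 response regulator genes, 18 of 73 tested rose and 29 fell in root at 180 min, or 24.7% and 39.7%, against 28.5% and 26.9% of all genes. This list shares members with the CHASE domain list, D01G146500 among them, so their counts are not independent. At 180 min 15 of 69 response regulator genes rose and 2 fell in leaf (9.89% and 9.61%), and 19 of 72 rose and 6 fell in stem (15% and 14.3%). A09G224400 rose in root from 4.54 ± 0.699 to 44.1 ± 3.81 FPKM (3.03 ± 0.20, adjusted p = 5.10e-08) and A08G159400 in stem from 6.0 ± 1.57 to 48.9 ± 24.7 (2.70 ± 0.36, adjusted p = 0.000224).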

How the data were processed

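RNA was measured in 45 libraries, 3 in each of 15 groups. The authors deposited FPKM values per gene. Alignment with HISAT2 2.0.5 and counting with featureCounts 1.5.0-p3 are named in the submitters' processing notes, without a role or order. The genome build and strand setting are not given in the sources used here. FPKM times gene length gave whole reads in every library (within 4.78e-07 of a read at low values), from which the reads in genes were summed, 16373617 to 21774520 a library. The deposited FPKM values are not scaled by these totals alone (root at 180 min differs most), and how the authors scaled them was not stated per the labels. All value columns were mapped to samples, with 0 left over. For root at 0 min, 2 columns share a name, so those libraries are called x and y and carry no replicate number.

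Values were analysed as log2(FPKM + 1) with limma 3.58.1 (trend and robust empirical Bayes) in R 4.3.3. Genes reached 1 FPKM in at least 3 libraries of the fit. Each tissue was fitted with its 15 libraries, with contrasts to 0 min and a combined F test. All 45 libraries were fitted for tissue differences and interactions. P-values were adjusted by Benjamini-Hochberg over all genes tested (46265 in leaf, 46711 in root, 47698 in stem and 54622 in the fit of all libraries). The procedure was tested on simulated data. Libraries scaled to their own total, quantile normalization, a pseudocount of 0.1, no filter, a replicate block and leaving out each library were tried.

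The members and lists were chosen with earlier results of these data known. Genes were named by a rule: per hormone and tissue, the 3 smallest F-test p-values, the largest rise and fall at each time whose libraries lie beyond those at 0 min, the 2 smallest interaction p-values and the largest 0 min difference each way per tissue pair, and the highest mean per class. Other members named were chosen after their values were seen.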

Additional observations from a re-analysis of the deposited data

Results flagged for a closer look

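For the following genes the change over time differed between tissues by an interaction F test in limma, adjusted over all genes. Groups of 3 libraries were too small for a test of single outlying libraries.

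Among gibberellin genes, the GA3-oxidase D11G043000 differed between leaf and root (adjusted p = 8.82e-08) and between root and stem (adjusted p = 2.24e-07). It passed the filter in root alone, so these interactions restate its root change and are no separate support. The GID1C receptor D08G229900 differed between root and stem (adjusted p = 1.3e-05). The GA2-oxidase A13G026600 differed between leaf and stem (adjusted p = 0.000585). The SAUR36 gene A11G079600 differed between leaf and root (adjusted p = 0.000145). The SAUR36 gene A08G136200 differed between leaf and stem (adjusted p = 0.00155) and between root and stem (adjusted p = 1.07e-05).

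Among cytokinin genes, IPT3 (A11G121500) differed between leaf and stem (adjusted p = 0.00014) and between root and stem (adjusted p = 0.000273). LOG5 (A01G107400) differed between leaf and root (adjusted p = 2.92e-06). The CKX gene D05G040300 differed between leaf and root (adjusted p = 5.99e-10) and between root and stem (adjusted p = 1.57e-08). It did not pass the filter in leaf, so its interaction of leaf with root restates its root change. D13G013800 differed between leaf and stem (adjusted p = 0.000274) and between root and stem (adjusted p = 3.57e-08). It did not pass the filter in stem, so these interactions restate its leaf and root changes. Between leaf and root, A05G038800 (adjusted p = 5.08e-07), D08G268600 (adjusted p = 1.72e-06) and A06G007700 (adjusted p = 0.0143) differed. The EIN2 gene A09G149000 differed between root and stem (adjusted p = 0.000308).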

How the results depend on the processing

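Counts of called members that moved by more than 1.5 times were as follows. With a pseudocount of 0.1, gibberellin genes called went from 0 to 1 in leaf at 10 min and from 5 to 3 in leaf at 60 min, and cytokinin genes from 2 to 1 in stem at 30 min. Without the filter, gibberellin calls in leaf at 60 min were 1 and cytokinin calls in stem at 30 min 0. Scaling to own totals gave 1 for the latter, and quantile normalization gave 0, with 7 in place of 4 cytokinin calls in root at 10 min. The GA2-oxidase A08G002700 changed sign in root at 180 min when scaled to own totals (-0.13).

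Leaving out 1 library gave, for cytokinin genes, 3 to 5 calls in leaf at 30 min, 5 to 9 in leaf at 180 min, 9 to 15 in root at 30 min, 0 to 1 in stem at 30 min, 3 to 6 in stem at 60 min and 5 to 10 in stem at 180 min. For gibberellin genes it gave 0 to 2 in leaf at 10 min, 6 to 11 at 30 min, 0 to 3 at 60 min and 5 to 10 at 180 min, 5 to 7 in root at 10 min, and in stem 0 to 2 at 30 min, 5 to 16 at 60 min and 6 to 15 at 180 min. These counts are not set beside the share of all genes called in the same refit. Of 487 called member results, 285 kept their call in every setting and 202 lost it in at least 1.

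Replicate numbers showed no steady pairing of libraries: same-numbered deviations correlated from -0.52 to 0.62 with those at 0 min. With 3 libraries a group, these correlations cannot exclude a pairing. A replicate block, which drops the 2 unnumbered root libraries at 0 min, gave gibberellin calls of 3 in leaf at 60 min, 3 in root at 10 min, 6 at 60 min and 13 at 180 min, and 11 between leaf and root and 12 between root and stem at 0 min. Under the block, cytokinin calls were 1 in root at 10 min, 6 in root at 30 min and 0 in stem at 30 min. Those libraries without the block, a fit added after seeing the data, gave gibberellin calls of 3 in root at 10 min, 7 in root at 60 min, 13 between leaf and root and 14 between root and stem, and cytokinin calls of 1 in root at 10 min and 5 at 30 min. Depth limits members under 1 FPKM, which were not tested.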
